A study of Mus musculus with 30 samples.

Results

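The Bcl2 family sets the threshold at which a cell starts apoptosis through its mitochondria, and 10 of its genes were followed here through the blood and marrow cells of mice, some descended from converted endothelium, and through a culture. The genes were taken by symbol from a gene expression table of 23060 symbols, and all 10 had a row. They comprise the survival genes Bcl2, Bcl2l1, Mcl1, Bcl2a1a, Bcl2a1b and Bcl2a1d, the death-promoting genes Bcl2l11, Bbc3 and Pmaip1, and the pore-forming effector Bax. Poly-A RNA sequencing gave 30 libraries, of which 29 fell into 11 groups. Adherent FGRS cells gave 3 libraries. They carry Fosb, Gfi1, Runx1 and Spi1 (4 transcription factors whose initials give the name), are annotated as derived, and were kept with human umbilical vein endothelial cells. The KLS sort, for cells with Kit and Sca1 but no lineage markers, was made on day 28. Libraries titled rEC are annotated as derived and were read as progeny of converted endothelial cells, while controls are annotated as wild type. Bone marrow LKS-SLAM cells, the fraction enriched for long-term stem cells, gave 3 rEC and 3 control libraries. Blood gave 3 rEC and 3 control libraries each of CD8 T cells and of B220+ B cells, and 2 rEC and 2 control libraries each of CD4 T cells and of Gr1+Cd11b+ myeloid cells. Some rEC titles name the clone 47G1 or a secondary recipient and others name neither, so rEC replicates need not share a transplant. The labels give no age, no strain and no statement that libraries came from separate animals. All p-values therefore measure the spread between libraries.

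The family works as a balance of binding partners. Survival members such as BCL2, BCL-XL (from Bcl2l1), MCL1 and A1 (from the Bcl2a1 genes) hold the effectors BAX and BAK in check. BH3-only proteins, among them BIM (from Bcl2l11), PUMA (from Bbc3) and NOXA (from Pmaip1), bind the survival members and free the effectors, which then open the outer mitochondrial membrane. Each blood lineage relies on its own mix: MCL1 is needed by stem cells and neutrophils, BCL2 by resting lymphocytes, and BCL-XL by platelets and developing red cells. Much of this control acts on protein half-life and binding, which RNA does not show.

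The A1 genes needed a look at their sequences before their values could be read, because they are near copies on chromosome 9 and reads of 51 bases may not tell them apart. Their coding sequences are 516 bases long each in GENCODE M21. Bcl2a1a and Bcl2a1b are 97.9% identical (11 positions differ), Bcl2a1a and Bcl2a1d 98.6% (7 positions) and Bcl2a1b and Bcl2a1d 98.8% (6 positions). The first 60 coding bases hold many of these differences and are shown with the differing positions in capitals. Bcl2a1a lies on the plus strand (chr9:88957051-88957110, GRCm38), Bcl2a1b on the plus strand (chr9:89199360-89199419) and Bcl2a1d on the minus strand (chr9:88731660-88731719).
Bcl2a1a: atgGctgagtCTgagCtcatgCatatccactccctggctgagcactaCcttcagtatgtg
Bcl2a1b: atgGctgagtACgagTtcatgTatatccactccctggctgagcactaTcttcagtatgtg
Bcl2a1d: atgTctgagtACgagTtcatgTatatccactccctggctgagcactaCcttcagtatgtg
Of all 51-base words in their transcripts, 68.4% of those of Bcl2a1a, 78.7% of those of Bcl2a1b and 79.0% of those of Bcl2a1d also occurred in another gene. The share was 8.44% for Bax, 5.23% for Bcl2, 0.122% for Bcl2l11 and 0% for Bcl2l1, Mcl1, Bbc3 and Pmaip1. How reads with several matches were divided among the A1 copies is not given in the sources used here. The copies are therefore reported singly as uncertain, and also as the sum of Bcl2a1a, Bcl2a1b and Bcl2a1d.

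The promoter windows of the A1 copies hold a match to a motif of PU.1, the factor encoded by Spi1 and one of the FGRS factors. The letters GAGGAAGT, searched on both strands from 250 bases before to 50 bases after each RefSeq transcript start, stood in the window of each of the 3 copies and in 3.11% of all windows (1013 of 32544). They were in no window of Bcl2, Bcl2l1, Mcl1, Bcl2l11, Bbc3 or Bax, and Pmaip1 was not searched. A 10-letter NF-kB motif, TTGCGCAA (C/EBP) and TGACGTCA (the cyclic AMP response element), found in 0.157%, 0.184% and 1.80% of all windows, were searched in the same way and stood in no window of these 9 members. A stretch of 90 bases from each copy is shown 5' to 3' on the gene's strand, with the motif in capitals (RefSeq, GRCm38.p6). It lies at chr9:88956816-88956905 (plus) for Bcl2a1a, chr9:89199125-89199214 (plus) for Bcl2a1b and chr9:88731865-88731954 (minus) for Bcl2a1d, and the copies differ at 2 of its positions.
Bcl2a1a promoter: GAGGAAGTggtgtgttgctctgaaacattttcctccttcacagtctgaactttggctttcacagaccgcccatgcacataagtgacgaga
Bcl2a1b promoter: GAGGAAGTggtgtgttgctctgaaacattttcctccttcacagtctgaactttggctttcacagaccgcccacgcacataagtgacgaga
Bcl2a1d promoter: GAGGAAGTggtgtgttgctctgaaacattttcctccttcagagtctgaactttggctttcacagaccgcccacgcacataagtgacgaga
A match is a description of letters and shows no binding. Of the other members, 6 lie at chr1:106538178-106714274 (Bcl2), chr2:128126038-128162547 (Bcl2l11), chr2:152780668-152831728 (Bcl2l1), chr3:95658788-95663176 (Mcl1), chr7:16308393-16318205 (Bbc3) and chr7:45461697-45466898 (Bax). Bcl2 overlaps D630008O14Rik and Bcl2a1d overlaps Gm10634, both on the opposite strand. On the same strand, Bax overlaps Gm45808, Bcl2a1b overlaps Gm29094, and Bcl2 overlaps Mir3473f and Gm37053. None of these had a row in the table. The libraries keep no strand, so reads from the shared stretches cannot be told from those of the members on either strand.

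Values are FPKM (fragments scaled to transcript length and to the number of mapped fragments), which sum to between 510115 and 727885 per library. Between 10165 and 12550 symbols reached 1 FPKM. Absolute depth is unknown, and relative depth ran from 0.588 to 1.13 of a reference library. Differences were tested with limma on log2(FPKM + 1) and are given on that scale, which understates the change of low genes. An adjusted p (Benjamini-Hochberg over the 14083 genes tested) under 0.05 is called here passing the test. A pair of libraries stood apart. LKS-SLAM rEC replicate 2 (clone 47G1) had an immediate early gene sum of 614.7 FPKM, against 10044 and 10666 in the other rEC libraries, and an erythroid marker sum of 2639 FPKM, against 42.4 and 303. Its LKS-SLAM marker sum was 128 FPKM, against 817 and 850 FPKM in the other rEC libraries, and its Ly6a 6.99 FPKM, against 153 and 184 FPKM. It stayed in the main fits, so rEC LKS-SLAM values include a library low in these markers. B cell rEC replicate 1 had a T cell marker sum of 1788 FPKM, against 13.2 and 17.7 in the other rEC B cell libraries. In bulk RNA, a change in the number of cells of one type and a change in RNA per cell cannot be told apart.

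Over the control cell types, the survival genes made up a different mix in each, with Mcl1 on top throughout. Mcl1 held 94.6% ± 0.0380 of the summed survival FPKM in control myeloid cells, 90.4% ± 0.910 in control B cells, 71.997% ± 1.71 in control CD4 T cells, 60.03% ± 1.01 in control CD8 T cells and 89.2% ± 1.11 in control LKS-SLAM cells (SD over the 2 or 3 libraries of each group). Bcl2 held 31.3% in control CD8 and 18.4% in control CD4 T cells, against 0.581% in control myeloid cells. Shares of this kind compare genes per length of transcript and say nothing of protein.

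**Figure D1:**
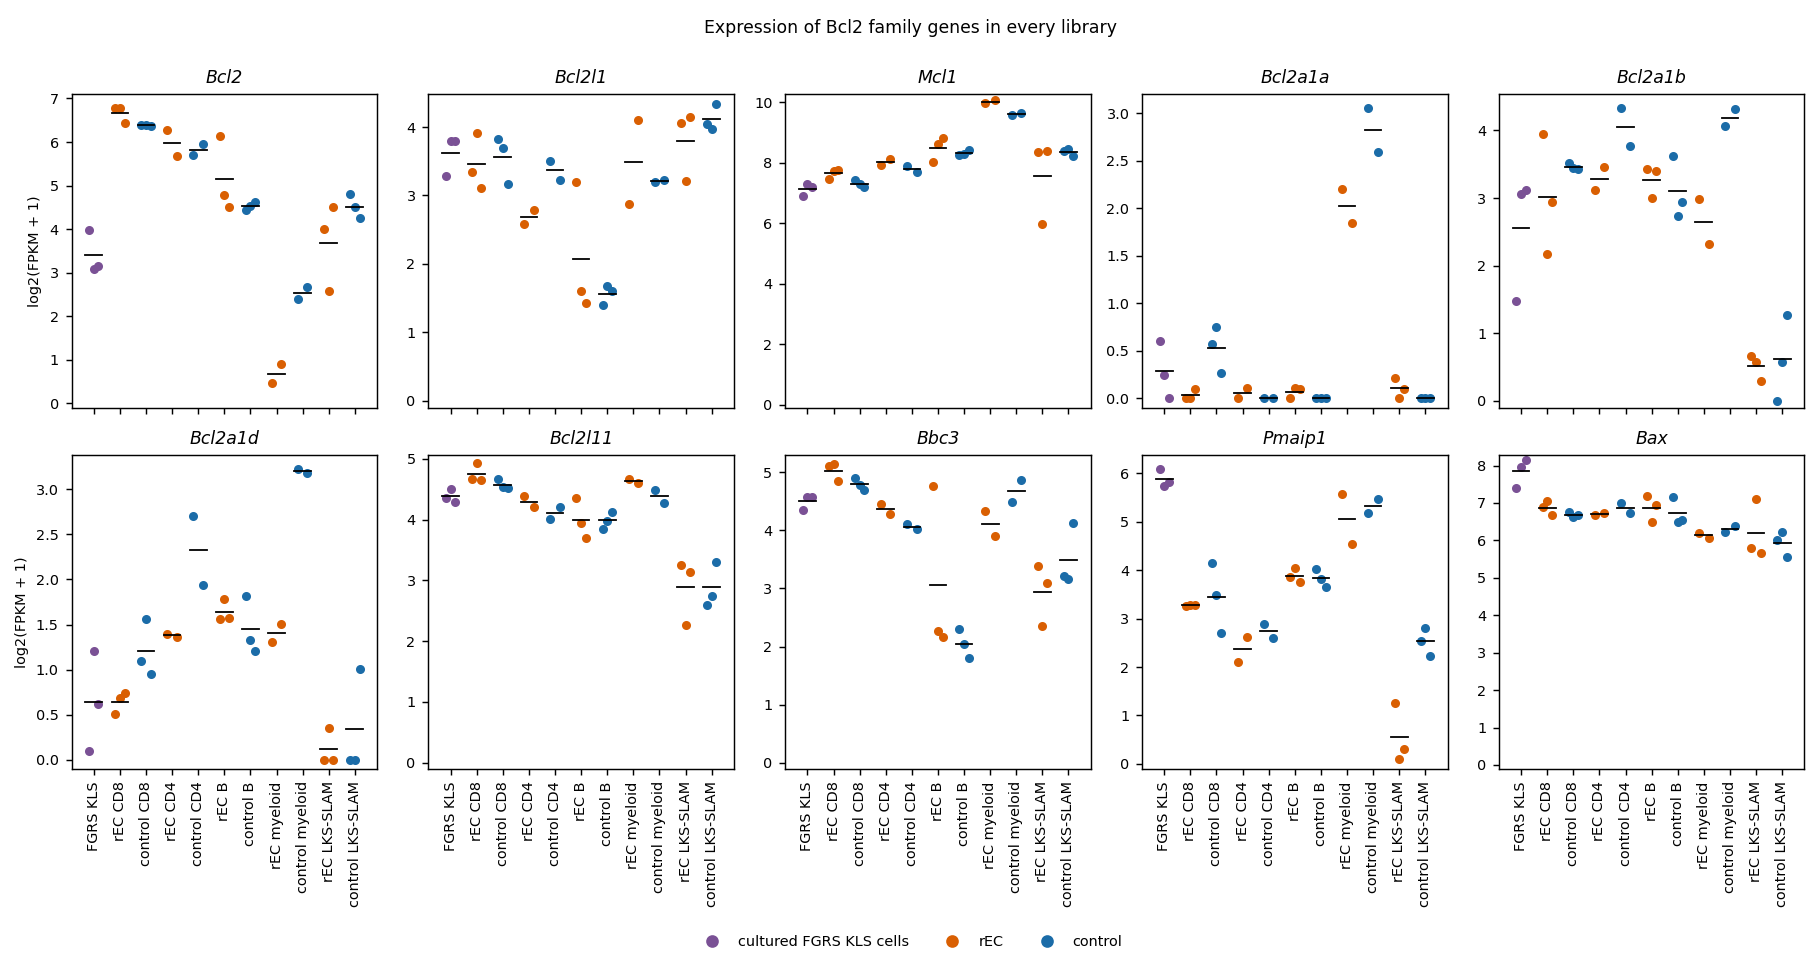
Expression of the 10 genes in each of the 29 grouped libraries, as log2(FPKM + 1). Points are libraries, bars are group means, and groups hold 2 or 3 libraries. By group mean, Bcl2 is highest in rEC CD8 T cells, Mcl1 in rEC myeloid cells, and Pmaip1 and Bax in the cultured FGRS KLS cells.

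**Figure D2:**
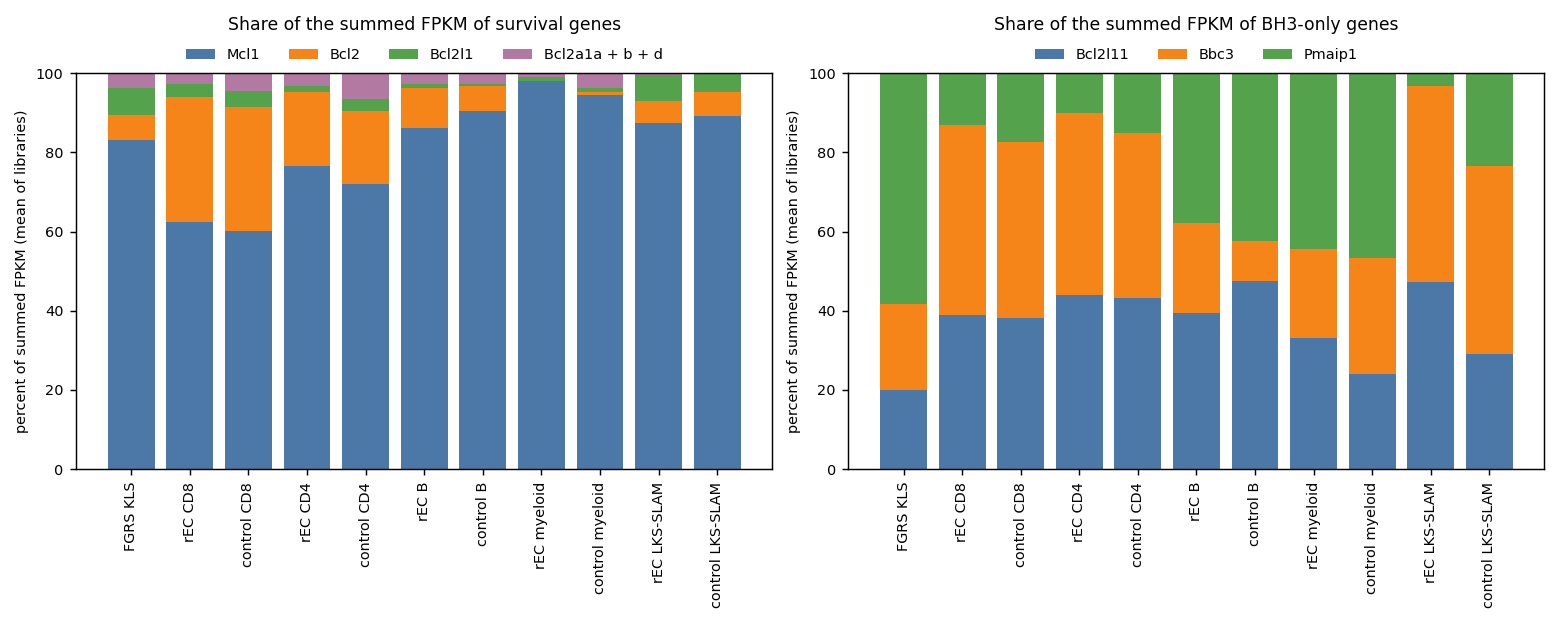
Make-up of the summed FPKM of the survival genes (left) and of the BH3-only genes (right), as the mean percent over the libraries of each group. Mcl1 fills most of each bar on the left, and Pmaip1 holds 58.2% of the BH3-only sum in FGRS KLS cells, against 3.18% in rEC and 23.3% in control LKS-SLAM cells.

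Bcl2, the founding survival gene, was read at 82.8, 82.9 and 81.8 FPKM in control CD8 T cells and at 51.1 and 60.6 FPKM in control CD4 T cells. Control B cells gave 20.8, 22.1 and 23.8 FPKM, control myeloid cells 4.29 and 5.39 FPKM, and control LKS-SLAM cells 26.8, 21.7 and 18.01 FPKM. T cells lay above, and myeloid cells below, every B cell and LKS-SLAM library. Against control LKS-SLAM cells the log2 difference was 1.87 ± 0.39 (SE) in CD8 T cells (limma adjusted p = 0.000374), 1.31 ± 0.43 in CD4 T cells (0.0153) and -1.98 ± 0.43 in myeloid cells (0.000396). In B cells it was 0.02 ± 0.39 (0.973). Going down the order of means, CD4 T cells differed from B cells (adjusted p = 0.0354). CD8 and CD4 T cells (0.697), and B and LKS-SLAM cells, did not pass.

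Mcl1, the labile survival gene, ran in another order. Control myeloid cells had 765 and 808 FPKM, control B cells 306, 312 and 345 FPKM, control CD4 T cells 235 and 205 FPKM, control CD8 T cells 170.2, 158 and 147 FPKM, and control LKS-SLAM cells 338, 350.3 and 300.4 FPKM. Myeloid cells stood above all other control types and CD8 T cells below all others, with no overlap. The difference from LKS-SLAM cells was 1.25 ± 0.43 in myeloid cells (limma adjusted p = 0.0130) and -1.05 ± 0.38 in CD8 T cells (0.0259). The myeloid call was lost when either myeloid library was left out (highest adjusted p 0.0659). The CD8 call was lost with quantile or median-of-ratios scaling and in 4 of 6 fits that left out a library (highest adjusted p 0.0697).

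Bcl2l1, which encodes BCL-XL, was lowest in B cells. Its values there were 1.65, 2.18 and 2.04 FPKM, against 15.5, 14.8 and 19.2 FPKM in control LKS-SLAM cells, an 8.43-fold gap in means (log2 difference -2.56 ± 0.37, limma adjusted p = 5.32e-06). The other control types lay between these, with means of 8.23 FPKM in myeloid, 9.38 FPKM in CD4 and 11.01 FPKM in CD8 T cells, and none of them passed against LKS-SLAM cells. B cells were also below the next type up, myeloid cells (adjusted p = 0.00191).

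The A1 copies were near or at 0 in LKS-SLAM cells and present in each blood type. Their sum was 31.4 and 32.05 FPKM in control myeloid cells, 13.9, 7.17 and 7.96 FPKM in control B cells, 24.6 and 15.5 FPKM in control CD4 T cells, and 12.1, 12.6 and 10.95 FPKM in control CD8 T cells. Control LKS-SLAM cells had 0, 0.487 and 2.43 FPKM. No blood library fell as low as any LKS-SLAM library. The summed difference was 4.25 ± 0.47 in myeloid cells, 2.58 ± 0.42 in B cells, 3.58 ± 0.47 in CD4 T cells and 2.90 ± 0.42 in CD8 T cells, and all passed (limma adjusted p = 1.07e-07 to 2.55e-05). As the reads were divided, Bcl2a1b gave the largest part of this sum in each control blood type. Bcl2a1a reached 1 FPKM in the 4 myeloid libraries alone, with 7.29 and 5.02 FPKM in control myeloid cells, and was listed at 0 in each control B, CD4 and LKS-SLAM library. It entered the test through the myeloid libraries and so had to differ there.

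Among the BH3-only genes, Bcl2l11 was higher in each control blood type than in LKS-SLAM cells. Bcl2l11 (BIM) had 21.5 and 18.4 FPKM in control myeloid cells, 13.4, 14.8 and 16.5 FPKM in B cells, 15.1 and 17.4 FPKM in CD4 T cells and 24.4, 22.1 and 22.0 FPKM in CD8 T cells. Control LKS-SLAM cells had 5.07, 5.68 and 8.91 FPKM, below every blood library. The differences ran from 1.10 ± 0.22 in B cells to 1.69 ± 0.22 in CD8 T cells, and each of the 4 passed (limma adjusted p = 1.43e-06 to 0.000267). Among the blood types no neighbouring pair in the order of means passed.

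Bbc3 (PUMA) split the lymphocytes. Control CD8 T cells had 28.9, 26.6 and 25.0 FPKM and control B cells 3.92, 3.14 and 2.50 FPKM, on either side of the 8.23, 7.96 and 16.4 FPKM of control LKS-SLAM cells. The differences were 1.30 ± 0.44 in CD8 T cells (limma adjusted p = 0.0168) and -1.44 ± 0.44 in B cells (0.00776). Myeloid cells, at 21.3 and 28.2 FPKM, passed at 1.18 ± 0.49 (0.0382), and this call was lost in 4 of 5 fits that left out a library (highest adjusted p 0.190). LKS-SLAM replicate 3 is the high control: without it the B cell call was lost, as it was with quantile scaling (highest adjusted p 0.0962).

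Pmaip1 (NOXA), which binds MCL1 and A1, was highest in myeloid cells among controls. Control myeloid cells had 35.5 and 43.4 FPKM, control B cells 15.3, 13.2 and 11.5 FPKM, control CD4 T cells 6.41 and 5.06 FPKM, control CD8 T cells 16.8, 10.2 and 5.51 FPKM, and control LKS-SLAM cells 4.81, 6.004 and 3.71 FPKM. The differences from LKS-SLAM cells were 2.80 ± 0.35 in myeloid cells (limma adjusted p = 5.38e-07), 1.31 ± 0.31 in B cells (0.00129) and 0.92 ± 0.31 in CD8 T cells (0.0184). CD8 and LKS-SLAM libraries overlapped, and the CD8 call was lost without CD8 replicate 1 or LKS-SLAM replicate 3, with a pseudocount of 0.1 and in a fit of both groups alone (highest adjusted p 0.154). CD4 T cells did not pass (0.636).

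Bax, the effector, varied least, 6.15-fold from its lowest to its highest library. Its means in controls were 77.7 FPKM in myeloid cells, 108 FPKM in B cells, 116 FPKM in CD4 and 102 FPKM in CD8 T cells and 61.3 FPKM in LKS-SLAM cells. The differences from LKS-SLAM cells passed in B (0.80 ± 0.29), CD4 (0.93 ± 0.32) and CD8 cells (0.75 ± 0.29; limma adjusted p = 0.0203 to 0.0333). Each of these calls was lost when single libraries were left out, in 2 of 6, 2 of 5 and 5 of 6 fits for B, CD4 and CD8 cells. No neighbouring control types differed in Bax.

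Bcl2a1a, tested only through the myeloid libraries, was left aside in these counts. Bcl2a1b and Bcl2a1d are counted singly in them and in the medians, though they may share reads. Of the other 9 genes, 7 passed between control myeloid and LKS-SLAM cells (6 higher). Of the same 9, 7 passed in B cells (5 higher), 5 in CD4 T cells (all higher) and 8 in CD8 T cells (7 higher). Bcl2a1a also passed higher in CD8 T cells, at a mean of 0.454 FPKM against 0 FPKM in LKS-SLAM cells. Over all genes tested, 66.5%, 55.6%, 50.5% and 50.2% passed in these comparisons, so passing as such is common. The share that passed higher was 17.4%, 18.9%, 18.6% and 17.0%, and the share that passed lower was 49.1% for myeloid, 36.7% for B and 33.2% for CD8 cells. The medians of these 9 members were 1.25, 0.80, 0.93 and 0.92 in myeloid, B, CD4 and CD8 cells. With Bcl2a1a they were 0.41, 0.74 and 0.89 in B, CD4 and CD8 cells. Medians over all genes were -0.61, -0.25, -0.21 and -0.21 in myeloid, B, CD4 and CD8 cells. These 4 comparisons share the control LKS-SLAM libraries. Quantile scaling moved the all-gene medians to -0.03, 0.08, 0.05 and 0.07, and the share of calls that were higher from 26.2%, 33.9%, 36.7% and 33.8% to 48.8%, 55.9%, 54.9% and 55.2%. No member that passed turned its direction under either other scaling. Of the 40 pairs of neighbouring control types in the members' orders of means, 12 passed. Among them is Bcl2a1a between myeloid and CD8 T cells, a call fixed by the filter. Bcl2a1a also passed between CD8 T and LKS-SLAM cells, at means of 0.454 and 0 FPKM. Its remaining pairs stood at 0 FPKM on both sides and could not pass. Over all 10 contrasts between control types 43.1% of gene and contrast combinations passed. Since neighbours in an order have the smallest gaps, the share of pairs that passed cannot be set against this.

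Summed over the BH3-only members followed here, cultured FGRS KLS cells had more RNA than either kind of LKS-SLAM cell. Summed over the survival members followed here, they had less than control LKS-SLAM cells, and in neither case did libraries overlap. In FGRS KLS cells Pmaip1 held 58.2% of the BH3-only sum and Mcl1 83.2% of the survival sum, so neither sum stands for its whole class. The summed survival FPKM ran from 143 to 186 in FGRS KLS cells, against 75.4 to 375 in rEC and 340.1 to 387 in control LKS-SLAM cells. The summed BH3-only FPKM ran from 96.7 to 106 in FGRS KLS cells, against 7.998 to 19.3 in rEC and 18.1 to 29.005 in control LKS-SLAM cells. The rEC survival sums overlapped those of FGRS KLS cells through the library of clone 47G1, which had the lowest, and the sums themselves were not tested. Against control LKS-SLAM cells 6 of the 10 members passed, 4 higher and 2 lower, where 48.8% of all genes passed (17.1% higher and 31.7% lower). Culture, the FGRS factors, the sort and the co-cultured endothelium all differ between these groups and cannot be told apart.

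Pmaip1 gave the largest difference of the 10. It had 66.9, 52.2 and 55.6 FPKM in FGRS KLS cells, against 1.38, 0.0674 and 0.244 FPKM in rEC and 4.81, 6.004 and 3.71 FPKM in control LKS-SLAM cells. The lowest FGRS library was above every one of the other 26 grouped libraries. FGRS KLS cells averaged 58.2 ± 7.70 FPKM and control LKS-SLAM cells 4.84 ± 1.15 FPKM (SD, n = 3 each), 12.03-fold more, and the log2 difference was 3.35 ± 0.31 (limma adjusted p = 6.97e-08). Against rEC LKS-SLAM cells it was 5.33 ± 0.31 (4.09e-11), and against control myeloid cells it did not pass (0.55 ± 0.35, 0.192).

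Bcl2l11 was higher than in both kinds of LKS-SLAM cell, and Bbc3 than in rEC cells. Bcl2l11 had 19.5, 21.6 and 18.7 FPKM in FGRS KLS cells, against 8.54, 3.81 and 7.84 FPKM in rEC and 5.07, 5.68 and 8.91 FPKM in control LKS-SLAM cells, with no overlap. The log2 difference was 1.497 ± 0.22 against rEC (limma adjusted p = 1.36e-05) and 1.501 ± 0.22 against control (1.42e-05). Bbc3 had 19.3, 22.9 and 22.9 FPKM in FGRS KLS cells, against 9.42, 4.13 and 7.54 FPKM in rEC and 8.23, 7.96 and 16.4 FPKM in control LKS-SLAM cells. It passed against rEC (1.56 ± 0.44, adjusted p = 0.00648) and did not pass against control LKS-SLAM cells (1.004 ± 0.44, 0.0617). Without both libraries that stood apart, neither of them in the groups compared, the difference from control stayed at 1.004. Its SE was then 0.20 and its limma adjusted p 0.000189, in a fit where 61.6% of all genes passed (48.8% as reported).

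Each FGRS KLS library had more Bax than any library of freshly isolated cells. FGRS KLS cells had 168, 248 and 285 FPKM, against 54.6, 138 and 49.3 FPKM in rEC and 63.2, 74.4 and 46.3 FPKM in control LKS-SLAM cells. Replicate 2 of the rEC cells, clone 47G1, came nearest. The log2 difference was 1.91 ± 0.29 against control (3.81-fold, limma adjusted p = 2.22e-05), 1.65 ± 0.29 against rEC LKS-SLAM cells (0.000104) and 1.55 ± 0.32 against control myeloid cells (0.000271).

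Among survival genes, Mcl1 and Bcl2 were lower in the culture and the A1 sum was higher. Mcl1 had 118, 157 and 147 FPKM in FGRS KLS cells, against 325, 61.4 and 336 FPKM in rEC and 338, 350.3 and 300.4 FPKM in control LKS-SLAM cells. The difference from control was -1.23 ± 0.38 (2.35-fold lower, limma adjusted p = 0.0110), and it kept its call in all 6 fits that left out a library and all 9 other settings. Bcl2 had 14.8, 7.55 and 7.87 FPKM in FGRS KLS cells, against 14.9, 4.94 and 21.6 FPKM in rEC and 26.8, 21.7 and 18.01 FPKM in control LKS-SLAM cells. Its difference from control was -1.11 ± 0.39 (0.0222), and this call was lost without LKS-SLAM control replicate 1 or FGRS replicate 2 or 3 (highest adjusted p 0.0890).

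Against rEC LKS-SLAM cells neither Mcl1 (-0.44 ± 0.38, limma adjusted p = 0.368) nor Bcl2 (-0.28 ± 0.39, 0.590) passed. The rEC library of clone 47G1, replicate 2, decided this: without it the differences were -1.24 for Mcl1 (2.94e-06) and -0.84 for Bcl2 (0.0376). For a single library, clone and sample cannot be told apart. The A1 sum was 2.37, 8.84 and 8.24 FPKM in FGRS KLS cells, against 0.752, 0.764 and 0.300 FPKM in rEC and 0, 0.487 and 2.43 FPKM in control LKS-SLAM cells. FGRS replicate 1 overlapped the control range. The difference was 2.08 ± 0.42 against rEC (0.000483) and 1.97 ± 0.42 against control (0.000736). Bcl2a1b alone passed in both comparisons among the copies, at 2.04 and 1.94. Bcl2l1 had 8.74, 12.9 and 12.8 FPKM in FGRS KLS cells and passed in neither (0.733 against rEC, 0.278 against control).

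**Figure D3:**
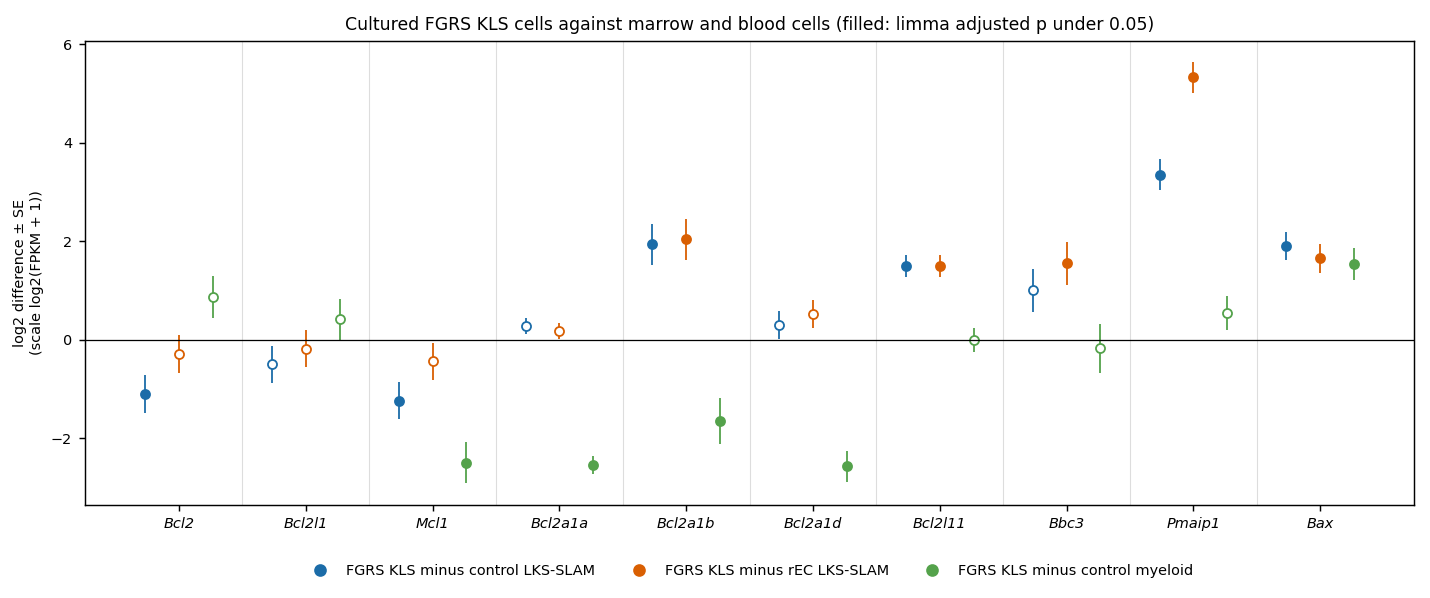
Log2 differences (scale log2(FPKM + 1), with SE from the limma fit) of FGRS KLS cells against control LKS-SLAM, rEC LKS-SLAM and control myeloid cells. Filled points passed the test. Pmaip1 stands highest in both LKS-SLAM comparisons at 3.35 and 5.33, and Mcl1 and the A1 copies lie below 0 against control myeloid cells.

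Of the 10 members, 5 passed against rEC LKS-SLAM cells, all higher, beside 45.0% of all genes (17.2% higher). The members' median difference was 0.65 against control and 1.01 against rEC LKS-SLAM cells, beside -0.19 and -0.14 over all genes. The fits share the FGRS libraries. Under quantile scaling the all-gene median against control became 0.03 and the share of calls that were higher 50.7%, in place of 35.1%, and the 6 members that passed kept their direction. Set against control myeloid cells, and again leaving aside Bcl2a1a, 4 of the other 9 members passed, 1 higher and 3 lower, beside 58.1% of all genes (37.8% higher and 20.3% lower). Bcl2a1b and Bcl2a1d are counted singly among these 9, though they may share reads. The BH3-only sum was 96.7 to 106 FPKM in FGRS KLS cells and 78.3 and 90.1 FPKM in control myeloid cells. Mcl1 (-2.49 ± 0.43, limma adjusted p = 3.12e-05) and the A1 sum (-2.28 ± 0.47, 0.000269) were lower and Bax was higher. Bcl2l11, with a ratio of means of 0.998, and Bbc3, with 0.876, did not pass. The all-gene median was 0.25 as deposited and -0.01 with quantile scaling, under which 50.5% of calls were higher in place of 65.0%.

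Other signals went with the culture. All 10 monocyte and macrophage markers passed higher in FGRS KLS cells than in control LKS-SLAM cells, with sums of 280.3 to 1830.0 FPKM against 33.7 to 36.2 FPKM. FGRS replicate 1 had the lowest of these sums and also the lowest A1 sum and the highest Bcl2. Of 8 LKS-SLAM markers 7 were lower, with sums of 129 to 179 FPKM in FGRS KLS cells, against 128 to 850.1 FPKM in rEC and 550.1 to 596 FPKM in control LKS-SLAM cells. Of 15 immediate early genes 14 were lower, with sums of 803 to 950.0 FPKM against 12609 to 14804 FPKM in control LKS-SLAM cells. The part of these in the results on the family was not tested.

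Other genes of the pathway were counted in fixed lists for FGRS KLS against control LKS-SLAM cells. The counts are to be read beside the 48.8% of all genes that passed (17.1% higher and 31.7% lower), and for every list but the immediate early genes the share that passed in all was below it. Of 12 other Bcl2 family genes tested, 3 were higher and 2 lower than in control LKS-SLAM cells (median 0.06). Bak1, the second effector, averaged 99.7 FPKM in FGRS KLS cells and 41.9 FPKM in control LKS-SLAM cells (1.23 ± 0.22, limma adjusted p = 0.000117). Bid, which links death receptors to mitochondria, averaged 46.1 FPKM in FGRS KLS cells and 22.4 FPKM in control LKS-SLAM cells (1.01 ± 0.20, 0.000336). Of 16 caspase, apoptosome and inhibitor genes, 5 were higher and 2 lower (median 0.23). They included Cycs, for cytochrome c, at 2.14 ± 0.43, Casp6 at 1.05 ± 0.17 and the inhibitor Birc2 at -0.85 ± 0.16. Of 10 death receptor genes 1 passed, the ligand Tnfsf10 (TRAIL), which was lower at -3.05 ± 0.56.

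Genes of p53 and its targets, and regulators of the BH3-only genes, did not share 1 direction. Of 15 genes of p53 and its targets, 4 were higher and 2 lower (median 0.28). Mdm2, a p53 target and inhibitor, averaged 61.1 FPKM in FGRS KLS cells and 31.3 FPKM in control LKS-SLAM cells (0.92 ± 0.15, limma adjusted p = 6.50e-05). Sesn2 was higher at 1.31 ± 0.25, and Sesn1 and Mdm4 were lower at -1.72 ± 0.39 and -1.02 ± 0.18. Of 8 regulators of Bim, Puma and Noxa transcription, 3 were lower (median -0.25). These were Foxo3, Foxo1 and the glucocorticoid-induced Tsc22d3, at -1.40 ± 0.30, -1.34 ± 0.45 and -4.32 ± 0.81. The Foxo1 call was lost with quantile scaling.

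Among 16 cytokine receptors and STATs, 2 were higher and 5 lower (median -0.93). The stem cell factor receptor Kit was lower at -2.81 ± 0.33. Kit averaged 18.9 FPKM in FGRS KLS cells and 125 FPKM in control LKS-SLAM cells, in cells sorted on Kit in both. Csf2rb, the shared receptor chain for IL-3 and GM-CSF, was higher at 2.103 ± 0.36. The 10 NF-kB genes split, with 2 higher and 2 lower (median -0.02), and so did the 6 tested genes of MCL1 turnover, with 1 higher (Bag3) and 1 lower (Btrc; median -0.10). All these medians stand beside -0.19, and all these counts beside 48.8% passing, over all genes.

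Between rEC and control cells, few members differed. In LKS-SLAM cells 1 of 10 passed, where 1.32% of all genes passed (1.25% lower). That gene was Pmaip1, at 1.38, 0.0674 and 0.244 FPKM in rEC and 4.81, 6.004 and 3.71 FPKM in control LKS-SLAM cells, with no overlap. The log2 difference was -1.97 ± 0.31 (8.60-fold lower in means, limma adjusted p = 0.00138). It passed in each of 6 fits that left out a library and without both libraries that stood apart (-1.75, 0.00173, in a fit where 11.1% of genes passed). Fitted on these 2 groups alone, it did not pass (0.818).

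Several other signals lay on the same side in these LKS-SLAM libraries. The neutrophil marker sum was 28.03 to 339 FPKM in rEC and 1265 to 1554 FPKM in control cells, and 5 of 8 such markers passed lower. Of these 8 markers, 8, 5 and 5 reached 1 FPKM in rEC replicates 1, 2 and 3, and all 8 in each control. The immediate early gene sum was 615 to 10666 FPKM in rEC and 12609 to 14804 FPKM in control cells. Of 7 eosinophil, basophil and mast cell markers 3 passed lower, with sums of 1.86 to 368 FPKM in rEC and 44.5 to 4398 FPKM in control cells. Plasma cell marker sums were 57.99 to 180.1 FPKM in rEC and 616 to 777 FPKM in control cells, and 3 of 6 such markers passed lower. The eosinophil, basophil and mast cell sums overlapped between the groups and the others did not. Pmaip1 is expressed in control myeloid cells, as given above. The part of these signals in the Pmaip1 difference was not tested.

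The library of clone 47G1, rEC replicate 2, shifted the LKS-SLAM difference of some other members, none of which passed with or without it. Mcl1 was 61.4 FPKM there and 325 and 336 FPKM in the other rEC libraries. With it the rEC minus control difference for Mcl1 was -0.79 ± 0.38 and without it 0.01 (limma adjusted p = 0.526 and 0.994). For Bax the difference was 0.25 with it and -0.21 without it, and neither passed. Bcl2l11 had nearly equal means, 6.73 ± 2.55 FPKM in rEC and 6.55 ± 2.07 FPKM in control cells (SD, n = 3 each).

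In myeloid cells 6 members lay below the controls in both rEC libraries (Bcl2, the 3 A1 copies, Bbc3 and Bax) and 2 lay above (Mcl1 and Bcl2l11). With 2 libraries against 2 this is common: 44.2% of all genes tested did not overlap, and 28.6% lay below. The 3 A1 copies may share reads and so need not be separate cases, and Bcl2a1a was tested only through the myeloid libraries. Bcl2 had 0.379 and 0.858 FPKM in rEC and 4.29 and 5.39 FPKM in control myeloid cells, 7.82-fold lower in means. Its log2 difference of -1.86 ± 0.47 did not pass (limma adjusted p = 0.155). Without both libraries that stood apart, neither of them myeloid, the same difference had an SE of 0.26 and passed at 0.000727. Bcl2a1d had 1.47 and 1.85 FPKM in rEC and 8.33 and 8.08 FPKM in control myeloid cells and was the 1 member of 10 that passed (-1.80 ± 0.34, 0.0213), beside 0.227% of all genes (0.163% lower). That call was lost in each of the 4 fits that left out a library and when the copies were summed. The A1 sum was 11.95 and 8.43 FPKM in rEC and 31.4 and 32.05 FPKM in control myeloid cells (-1.57 ± 0.52, 0.583).

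Mcl1, at 1008 and 1081 FPKM in rEC and 765 and 808 FPKM in control myeloid cells, differed by 0.41 ± 0.47 and did not pass. The neutrophil marker sum was 43404 and 87116 FPKM in rEC and 32836 and 36511 FPKM in control myeloid cells. B cell marker sums were 8.28 and 6.75 FPKM in rEC and 19.8 and 45.5 FPKM in control myeloid cells, and NK cell marker sums were 5.44 and 0.235 FPKM in rEC and 29.2 and 31.5 FPKM in control myeloid cells. No marker of either list passed. The part of these signals in the myeloid values was not tested.

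In B cells no member passed, nor did any gene of the 14083 tested (0%). In CD4 T cells none of the 10 passed, where 0.0213% of genes did, and in CD8 T cells none passed, where 1.13% did. At an unadjusted p under 0.05, 1 member was below this in each of these types: Bbc3 in B cells, Bcl2a1d in CD4 and Bcl2a1a in CD8 T cells. Over all genes 2.83%, 2.96% and 7.46% were under 0.05 in B, CD4 and CD8 cells, and Bcl2a1a was tested there only because of its myeloid values. The Bbc3 value rested on the rEC B cell library with T cell transcripts, which had 26.2 FPKM, against 3.81 and 3.47 FPKM in the other rEC and 2.50 to 3.92 FPKM in control B cells. The same library had 69.2 FPKM of Bcl2, against 26.5 and 21.7 FPKM in the other rEC libraries.

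In CD8 T cells Bcl2 was 109.8, 109.0 and 85.1 FPKM in rEC and 82.8, 82.9 and 81.8 FPKM in control cells. Mcl1 was 177, 209 and 215 FPKM in rEC and 170.2, 158 and 147 FPKM in control cells. All rEC libraries lay above all controls for both genes, yet the differences of 0.28 ± 0.39 and 0.33 ± 0.38 did not pass (limma adjusted p = 1 for both). Bcl2a1a and Bcl2a1d lay on the other side, with every rEC library below every control. Bcl2a1a was at most 0.0664 FPKM in rEC and at least 0.199 FPKM in control cells. Bcl2a1d was at most 0.664 and at least 0.929 FPKM. The share of all genes without overlap was not counted in CD8 T cells. B cell marker sums differed too, at 18.2 to 71.9 FPKM in rEC and 234 to 541 FPKM in control CD8 T cells. Monocyte and macrophage marker sums were 7.27 to 8.75 FPKM in rEC and 23.2 to 71.8 FPKM in control CD8 T cells. The myeloid marker Itgam was at 0.634, 0.338 and 0.559 FPKM in rEC and 9.49, 20.9 and 3.05 FPKM in control CD8 T cells. Neutrophil marker sums overlapped, at 311 to 663 FPKM in rEC and 519 to 746 FPKM in control CD8 T cells. The part of these signals was not tested. Bcl2l11 and Bax means differed by at most 1.19-fold and 1.31-fold between rEC and control cells in any of the 5 types.

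**Figure D4:**
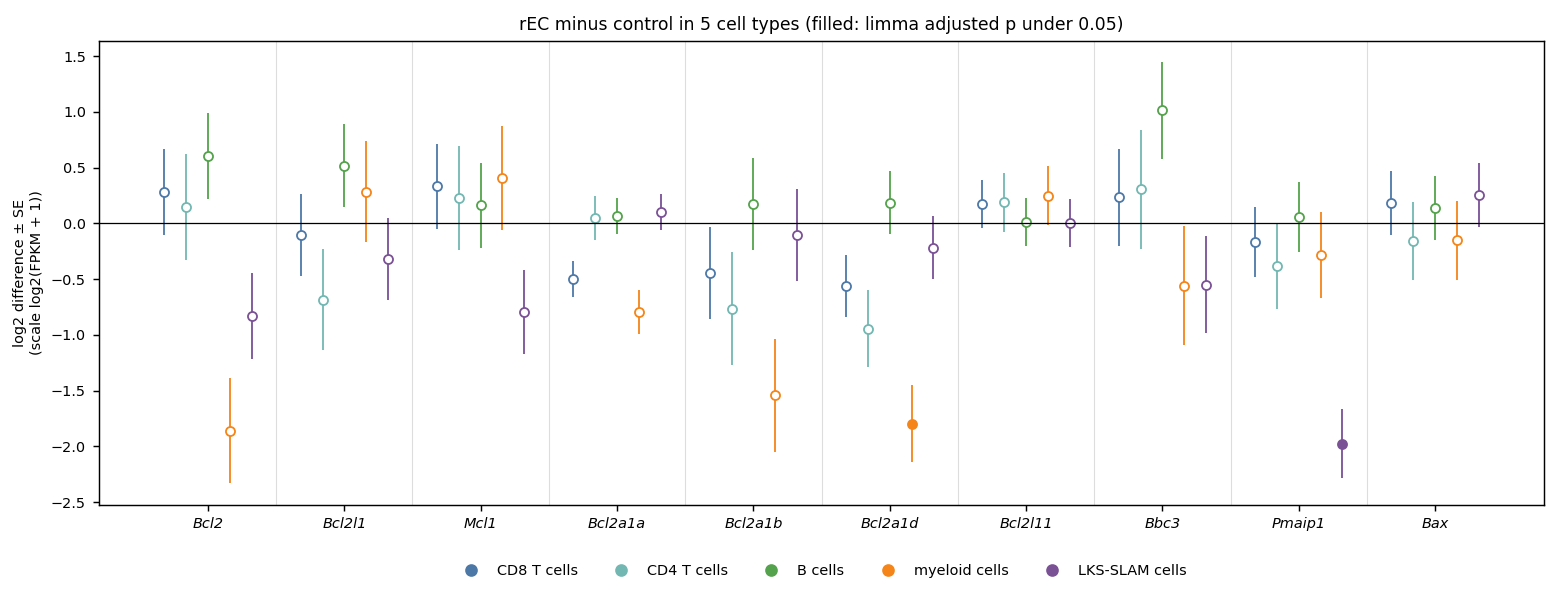
Log2 differences (scale log2(FPKM + 1), with SE from the limma fit) of rEC minus control cells for the 10 genes in 5 cell types. Filled points passed the test: Pmaip1 in LKS-SLAM cells at -1.97 and Bcl2a1d in myeloid cells at -1.80.

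Averaged over the 5 types, 1 of 10 members passed, Bcl2a1d at -0.67 (limma adjusted p = 0.0197), beside 0.895% of all genes (0.483% lower). It was lower in rEC means in 4 of 5 types. The call was lost without control myeloid replicate 1 or 2 or control CD4 replicate 1, and with the copies summed (-0.57 ± 0.21, 0.286). Whether the origin difference varied between cell types was asked with an F test. None of the 10 passed, where 0.277% of genes did, and 4 were under 0.05 unadjusted (Bcl2, Bcl2a1a, Bcl2a1d and Pmaip1), where 5.05% of genes were. Of these 4, Bcl2a1a was tested only because of its myeloid values, so its place in this count carries no weight. Bcl2a1d may share reads with the other A1 copies. Without both libraries that stood apart, Bcl2 passed (adjusted p = 0.00357).

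For each member, the 3 genes with the most similar pattern over the 11 group means of log2(FPKM + 1) were listed, among 10853 genes with a group mean of at least 5 FPKM. This is a description over few points that share libraries. For Bcl2 they were Wdr33 (Pearson r = 0.978), Sept6 (0.976) and Ep400 (0.974), for Mcl1 Samd4b (0.970), Tsc22d4 (0.967) and Vps9d1 (0.967), and for Bcl2l1 Runx2 (0.960), Bscl2 (0.950) and Lgals3bp (0.948). For Bcl2l11 they were Obfc1 (0.980), Edem1 (0.937) and Wdr1 (0.936), for Bbc3 Errfi1 (0.933), Myl12a (0.928) and Hpcal1 (0.917), for Pmaip1 Milr1 (0.965), Slc2a1 (0.953) and Pepd (0.942), and for Bax Eaf1 (0.934), Edf1 (0.932) and Lypla1 (0.932). The A1 copies are given by their leading gene alone, which was Cyp2ab1 (0.997) for Bcl2a1a, Cd53 (0.953) for Bcl2a1b and Fam45a (0.909) for Bcl2a1d. Likeness of pattern says nothing of shared function.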

How the data were processed

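The deposited table holds FPKM per gene symbol and library, made by the authors from 51-base paired, non-stranded poly-A reads, per the labels' protocols. The submitters' processing notes name Trimmomatic 0.36, TopHat2 2.1.0, Cufflinks 2.2.1 and mm10. Their settings and any normalisation between libraries are not given in the sources used here.

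From these values, limma 3.58.1 in R 4.3.3 was fitted to log2(FPKM + 1) with an intensity trend and 1 mean per group (29 libraries, 11 groups, 18 residual degrees of freedom), so all groups share 1 estimate of spread. A gene was tested, two-sided, where 2 or more libraries reached 1 FPKM, which left 14083 genes and all 10 members. The model was tested on simulated data. The members and lists were chosen with earlier results of these data known. All 10 members are named, and at most 4 genes that passed per list, some of which are not reported here. Sequences were matched to GENCODE M21 and to RefSeq windows. Alternatives were other pseudocounts, filters, scalings, weights, subsets of libraries and summed A1 copies. Python 3.11.15 with pandas 2.3.3, numpy 2.4.6 and matplotlib 3.10.9 was used. A library of B220+ cells of clone 47G1 annotated as wild type was in no comparison.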

Additional observations from a re-analysis of the deposited data

Results flagged for a closer look

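The title of 1 B220+ library names clone 47G1 while its genotype is given as wild type, so it entered no comparison. Its values were above the highest control B cell library for 5 members: 31.4 FPKM of Bcl2, 357 FPKM of Mcl1, 0.0751 FPKM of Bcl2a1a, 2.78 FPKM of Bcl2a1d and 4.39 FPKM of Bbc3. The highest control B cell values were 23.8, 345, 0, 2.52 and 3.92 FPKM for these genes. Another 2 members lay below the lowest control, Bcl2l1 at 1.56 FPKM and Bcl2l11 at 12.1 FPKM, against 1.65 and 13.4 FPKM. Of all genes tested, 28.7% lay above the 3 controls and 14.7% below them.

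Bcl2 was higher in each rEC than in each control CD8 T cell library (ratio of means 1.23) and lower in each rEC than in each control myeloid library (ratio 0.128). Bbc3 was higher in each rEC than in each control CD4 T cell library (ratio 1.25) and lower in myeloid cells (ratio 0.667). Between rEC and control myeloid cells 44.2% of all genes tested did not overlap. For CD4 and CD8 T cells this share was not counted. The difference between these pairs of cell types was not tested by itself. The limma F test over all 5 types gave adjusted p = 0.314 for Bcl2 and 1 for Bbc3.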

How the results depend on the processing

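Members that passed were counted again under each alternative. With a pseudocount of 0.1, 1 passed for rEC against control CD8 T cells (0 as reported) and 0 for the mean over the 5 types (1). With no filter 2, and with a filter of 5 FPKM 0, passed for rEC against control myeloid cells (1). With array quality weights 4 passed in LKS-SLAM cells (1), 4 in myeloid cells (1), 3 in CD8 T cells (0), 8 for FGRS KLS against rEC LKS-SLAM cells (5), 7 for the mean (1), 7 for the F test (0) and 20 of the neighbouring pairs (12). Those weights ran from 0.0234 to 27.0, and their estimation stopped before it converged, so these values carry little. Bax in LKS-SLAM cells turned to -0.33 (rEC minus control) with them. Fitting the 2 groups compared alone gave 0 in LKS-SLAM cells, 2 in myeloid cells and 3 for FGRS KLS against rEC LKS-SLAM cells. Without both libraries that stood apart, 2 passed in myeloid cells, where 0.747% of all genes did (0.227% as reported). For control CD4 T cells against LKS-SLAM cells 8 passed (5), where 62.6% of all genes did (50.5%). Neither library is in the groups of these comparisons, so their differences stayed the same and the spread estimate shared by all groups changed. For Bcl2 in rEC against control myeloid cells the difference was -1.86 in both fits, with an SE of 0.47 as reported and 0.26 without them. The mean gave 2 and the F test 1. Both of these include the libraries left out, and the cause was not tested.

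Leaving out 1 library in turn gave 1 in LKS-SLAM, 0 in myeloid, B, CD4 and CD8 cells, 5 to 7 for FGRS KLS against control and against rEC LKS-SLAM cells, 5 against control myeloid cells, 6 to 8 for control myeloid, 5 to 7 for B, 4 to 5 for CD4 and 5 to 7 for CD8 cells against LKS-SLAM cells, 0 to 2 for the mean, 0 to 1 for the F test and 10 to 13 neighbouring pairs.

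With the replicate number as a block, 1 member passed in rEC against control myeloid cells and 6 in FGRS KLS against control LKS-SLAM cells, as without the block. The labels state no pairing. Same-numbered deviations correlated at 0.0754 for both myeloid pairs and at -0.0597, 0.0654 and -0.0889 for FGRS and control. Depth limits Bcl2a1a and Bcl2a1d most, since both lie below 1 FPKM in many libraries.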
